A study of Homo sapiens with 36 samples.

Results

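GDF15 and TP53INP1 are 2 of the 29744 genes in the deposited table, and their transcripts are described here in BxPC-3 cells exposed to TRAP1, to compounds used as its controls, or to DMSO. They were chosen by gene name because their levels were much higher with TRAP1 than with DMSO while staying close to DMSO with JQ1 and with TRAP-1-NegP. The levels in those groups chose them, so the comparisons of TRAP1, JQ1 and TRAP-1-NegP, and of DMSO between times, are descriptions with no test. Both genes passed the filter on low counts that left 14988 genes.

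BxPC-3 is an established human pancreatic adenocarcinoma line, labelled wild type in genotype, which is known to carry a mutant form of p53. It was grown in RPMI medium with fetal bovine serum and exposed to 1 of 5 compounds at 3 µM, or to DMSO alone, for 2 or 4 h. The compounds are TRAP1 (a compound name here, not the gene of that symbol), TRAP-1-NegB, TRAP-1-NegP, JQ1 and MS78, which makes 12 groups of 3 libraries, 36 in all, from polyadenylated RNA. JQ1 inhibits the BET bromodomain proteins, which bind acetylated histones, and the meaning of the suffixes NegB and NegP is not given in the labels. They also do not say whether the 3 replicates of a group were separate cultures, so the errors below measure the spread between these libraries, which may be technical. All groups come from 1 cell line and share its genotype.

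The transcription factor p53 is held at a low level in unstressed cells, mainly by the ubiquitin ligase MDM2, and after DNA damage and other stress it activates genes for cell cycle arrest, apoptosis, repair and secreted signals. GDF15 is a secreted member of the TGF-beta superfamily whose receptor in the brainstem is GFRAL, acting with the kinase RET, and its transcription is also driven by ATF4 and CHOP in the integrated stress response. TP53INP1 is a small stress protein that joins p53 and the kinase HIPK2 in a loop that favours apoptosis, and it binds ATG8-family proteins such as LC3 in autophagy. Low TP53INP1 protein has been described in pancreatic adenocarcinoma.

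Library totals ran from 15288688 to 26608325 estimated counts. The 8 ductal and epithelial markers, among them KRT19 and EPCAM, were all above 1 TPM, the per-length unit of transcript level, on average, and summed to 8770 to 11625 TPM in each library. Markers of other cells were low: the 3 endocrine markers summed to at most 0.58 TPM, with INS and GCG at 0, the 6 mesenchymal markers to at most 2.91, the 5 haematopoietic to at most 6.26, the 3 endothelial to at most 3.62 and the 3 acinar markers measured to at most 7.37. TRAP1 replicate 1 at 4 h had no count for 1287 tested genes, against 929 and 503 in the other replicates. MS78 replicate 1 at 2 h differed from its own replicates by 27.1 and 43.8 in chi-square per degree of freedom, where all other replicate pairs lay between 4.51 and 15.1. Some results that rest on these libraries, mainly those of the members, are given with and without them. The list counts with TRAP1 at 4 h, the neighbouring genes and the genes most alike are given with all libraries only. In bulk RNA, fewer cells carrying a transcript and less of it per cell cannot be told apart.

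GDF15 (NM_004864.2, 2 exons, 1200 bases) lies on chromosome 19 from 18374731 to 18389176 on the + strand in GENCODE v29 on GRCh38, with the RefSeq transcript starting at 18386158. Its upstream sequence is shown so that the levels below can be read beside the region where its transcript starts. RefSeq's promoter table (GRCh38.p14) matched 1 of the 2 members, GDF15, and TP53INP1 had no entry. The 250 bases before the start, chr19:18385908-18386157 on the + strand, are given 5′ to 3′ with the letters TATAAA in capitals:

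GDF15 upstream: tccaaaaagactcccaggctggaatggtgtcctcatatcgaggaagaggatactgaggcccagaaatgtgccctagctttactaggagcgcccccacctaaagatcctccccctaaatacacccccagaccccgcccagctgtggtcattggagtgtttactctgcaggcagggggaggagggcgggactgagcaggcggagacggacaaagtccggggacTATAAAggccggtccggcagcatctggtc

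The capitals begin at position −29 relative to the RefSeq start (18386129 to 18386134), and TATAAA on either strand was found in 10.7% of the 35116 promoters over the same 250 bases. Of the other motifs searched on both strands, none was found in this window. They were the p53 half-site consensus (present in 5.57% of all promoters), CATG, a core that the half-site allows but does not require (47.6%), the ATF4-type TGATGNAA (3.14%), the AP-1 type TGANTCA (6.57%), the CRE TGACGTCA (1.65%) and the EGR1-type GCGTGGGCG (0.72%). The window was 58.4% GC with 9 CpG, and the medians over all promoters were 58% and 11. Matches and absences describe these letters only.

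Levels are first given in CPM, counts divided by TMM-scaled library size. In DMSO at 2 h, GDF15 stood at 12.9, 10.6 and 13.7 CPM in replicates 1, 2 and 3, and in DMSO at 4 h at 12.4, 16.5 and 14.9. TRAP1 at 2 h gave 56.3, 55.1 and 57.4 CPM. TRAP1 at 4 h gave 241, 274 and 282 CPM. Every TRAP1 library was above every DMSO library, the 4 h libraries were all above the 2 h libraries, and the lowest 4 h value belonged to the replicate that stood apart. The GDF15 log2 fold change against DMSO was 2.19 ± 0.153 (SE, n = 3 per group) at 2 h and 4.18 ± 0.160 at 4 h, which correspond to 4.55-fold and 18.2-fold. Without TRAP1 replicate 1 the 4 h value was 4.25.

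TP53INP1 (chromosome 8, 94925972 to 94949411, − strand, GENCODE v29 on GRCh38) was a rare transcript in DMSO. At 2 h it stood at 1.13, 2.44 and 2.80 CPM, from 25, 58 and 61 counts, and at 4 h at 0.641, 1.48 and 2.34, from 13, 27 and 48 counts. The DMSO replicates therefore spread several-fold, far more than for GDF15. TRAP1 at 2 h gave 16.1, 15.6 and 13.4 CPM, and TRAP1 at 4 h gave 55.5, 53.7 and 57.3. All TRAP1 libraries lay above all DMSO libraries, with no overlap between the TRAP1 times. The TP53INP1 log2 fold change was 2.82 ± 0.311 at 2 h and 5.21 ± 0.340 at 4 h, or 7.06-fold and 37.1-fold. The 4 h value rests on the low DMSO group: its 95% interval ran from 4.53 to 5.90, and leaving out DMSO replicate 3 at 4 h gave 5.71.

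**Figure D1:**
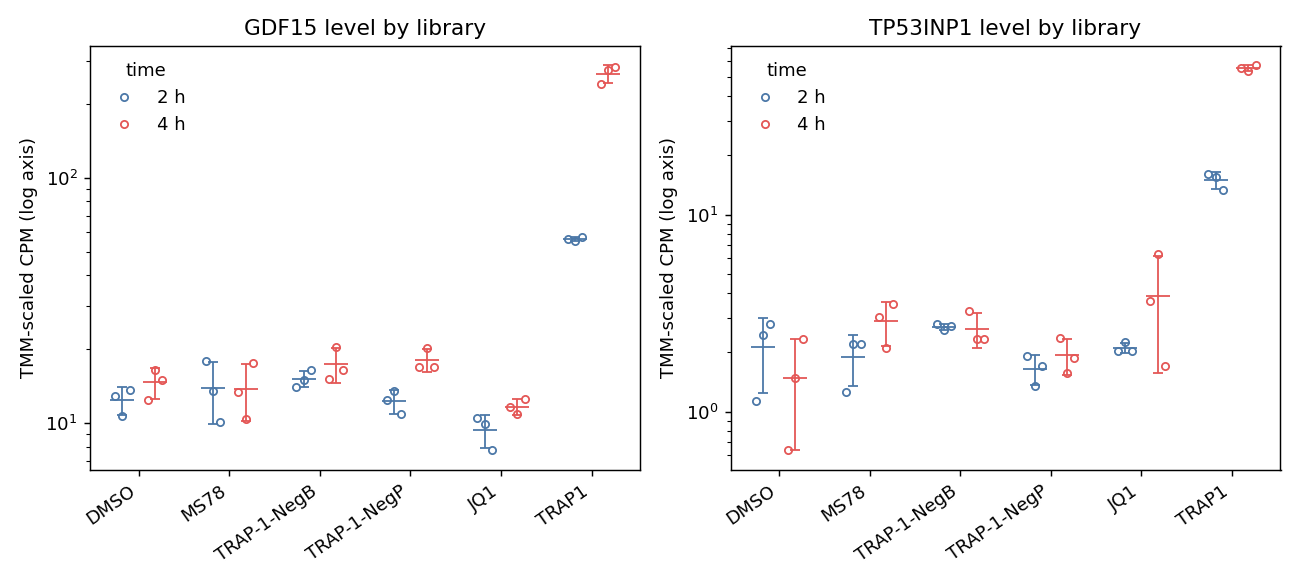
Level of GDF15 (left) and TP53INP1 (right) in TMM-scaled CPM on a log axis, by compound and time. Open points are single libraries, and horizontal marks with bars are the mean ± SD of 3 libraries. The 3 TRAP1 libraries at 4 h sit at 241 to 282 CPM for GDF15 and 53.7 to 57.3 for TP53INP1, above all libraries of the other compounds.

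With TRAP-1-NegP, GDF15 stood at 12.4, 13.5 and 10.8 CPM at 2 h and 17.0, 20.2 and 16.8 at 4 h, so the 2 h libraries overlapped DMSO and the 4 h libraries all lay above DMSO's highest, 16.5. The log2 fold change was −0.02 ± 0.163 at 2 h and 0.31 ± 0.157 at 4 h, with a 95% interval of −0.01 to 0.62 at the later time. With JQ1, GDF15 stood at 10.5, 9.89 and 7.73 CPM at 2 h and 11.6, 10.8 and 12.5 at 4 h. The JQ1 libraries were lower than all DMSO libraries at 2 h, and the groups overlapped at 4 h through 1 JQ1 library just above DMSO's lowest. On the log2 scale the difference from DMSO was −0.40 ± 0.165 at 2 h and −0.32 ± 0.162 at 4 h. GDF15 thus stood at or below DMSO with JQ1 and near it with TRAP-1-NegP.

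For TP53INP1, TRAP-1-NegP gave 1.91, 1.35 and 1.70 CPM at 2 h and 2.36, 1.56 and 1.87 at 4 h, overlapping DMSO at both times. The log2 fold change was −0.35 ± 0.350 at 2 h and 0.37 ± 0.358 at 4 h. JQ1 gave 2.04, 2.24 and 2.03 CPM at 2 h, inside the DMSO range, and 3.64, 6.28 and 1.70 at 4 h. The JQ1 value at 4 h was 1.38 ± 0.338 on the log2 scale (95% interval 0.69 to 2.06), which goes against the description of near no response to JQ1. Replicates 1 and 2 were above all DMSO libraries and replicate 3 was inside the DMSO range. Without JQ1 replicate 2 the value was 0.83, and without DMSO replicate 3 it was 1.89.

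The direct differences between TRAP1 and each control compound, on the log2 scale, were largest against JQ1 for GDF15 at 4 h (4.51 ± 0.163), and 4.27 against MS78, 3.94 against TRAP-1-NegB and 3.88 against TRAP-1-NegP. At 2 h they were 2.59 against JQ1, 2.21 against TRAP-1-NegP, 2.01 against MS78 and 1.89 against TRAP-1-NegB. For TP53INP1 at 4 h they were 4.84 against TRAP-1-NegP, 4.40 against TRAP-1-NegB, 4.27 against MS78 and 3.84 against JQ1. At 2 h they were 3.17 against TRAP-1-NegP, 3.01 against MS78, 2.83 against JQ1 and 2.47 against TRAP-1-NegB. The change in the TRAP1 effect from 2 to 4 h was 2.00 ± 0.212 for GDF15 and 2.39 ± 0.443 for TP53INP1.

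TRAP-1-NegB and MS78 did not enter the choice of the genes, so they were tested, with edgeR's quasi-likelihood test and Benjamini-Hochberg adjustment over 14988 genes. The DMSO libraries they are set against did enter it, as the baseline. A DMSO group low by chance would favour the choice and also raise these differences. The tests against DMSO are therefore not independent of the choice. TRAP-1-NegB gave GDF15 levels of 14.05, 15.01 and 16.41 CPM at 2 h and 15.1, 20.5 and 16.4 at 4 h. The 2 h libraries were all above the DMSO maximum of 13.7, and the 4 h libraries overlapped DMSO. Against DMSO the log2 fold change was 0.30 ± 0.158 at 2 h (95% interval −0.02 to 0.62, adjusted p = 0.28) and 0.24 ± 0.157 at 4 h (−0.07 to 0.56, adjusted p = 0.65), so neither passed 0.05. In the same comparisons 10.9% and 1.03% of all tested genes passed.

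For TP53INP1, TRAP-1-NegB gave 2.79, 2.61 and 2.71 CPM at 2 h and 3.24, 2.33 and 2.33 at 4 h, overlapping DMSO at both times. The log2 fold change was 0.35 ± 0.326 at 2 h (95% interval −0.31 to 1.00, adjusted p = 0.65) and 0.82 ± 0.345 at 4 h (0.12 to 1.51, adjusted p = 0.39, edgeR). Neither passed the threshold.

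MS78 gave GDF15 levels of 17.9, 13.5 and 10.1 CPM at 2 h and 13.4, 10.4 and 17.5 at 4 h, overlapping DMSO at both times. The highest 2 h value came from the replicate that stood apart. Against DMSO the log2 fold change was 0.18 ± 0.159 at 2 h (95% interval −0.15 to 0.50, adjusted p = 0.55) and −0.08 ± 0.159 at 4 h (−0.41 to 0.24, adjusted p = 0.79), where 15.9% and 15.3% of all genes passed. Without MS78 replicate 1 the 2 h value was −0.073, with the opposite sign. Both MS78 intervals end well below the TRAP1 values of 2.19 and 4.18.

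TP53INP1 with MS78 stood at 1.26, 2.20 and 2.21 CPM at 2 h, inside the DMSO range, and at 3.01, 2.09 and 3.54 at 4 h, where replicates 1 and 3 were above all DMSO libraries. The log2 fold change was −0.19 ± 0.339 at 2 h (95% interval −0.87 to 0.49, adjusted p = 0.80) and 0.95 ± 0.343 at 4 h (0.26 to 1.64, adjusted p = 0.053), just short of the threshold with edgeR. DESeq2's Wald test gave 0.97 with an adjusted p of 0.023, and leaving out DMSO replicate 3 gave 1.49 with an adjusted p of 0.0094, so the call at 4 h depends on the method and on 1 DMSO library. The 4 h comparisons of all compounds share the same 3 DMSO libraries, whose TP53INP1 counts were 13 to 48.

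MS78 and TRAP-1-NegB were also set against each other at the same dose and times, 4 comparisons in all. For GDF15 the log2 difference was −0.12 ± 0.157 at 2 h (95% interval −0.44 to 0.20, adjusted p = 0.75) and −0.33 ± 0.156 at 4 h (−0.65 to −0.01, adjusted p = 0.21). For TP53INP1 it was −0.54 ± 0.333 at 2 h (−1.21 to 0.14, adjusted p = 0.40) and 0.13 ± 0.320 at 4 h (−0.52 to 0.78, adjusted p = 0.88, edgeR). None passed 0.05 where 3.17% and 8.93% of all genes did, at 2 and 4 h. These intervals do not show that the compounds act alike. Without MS78 replicate 3 the 4 h difference for GDF15 was −0.54 with an adjusted p of 0.037.

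Both DMSO groups were the baseline of the choice, so their difference over time is given as a description, with no test. DMSO at 4 h against 2 h gave 0.24 ± 0.160 for GDF15 (95% interval −0.08 to 0.56) and −0.51 ± 0.350 for TP53INP1 (−1.21 to 0.20). The MS78 effect differed between 4 and 2 h by −0.26 for GDF15 (adjusted p = 0.51) and 1.14 for TP53INP1 (adjusted p = 0.11, edgeR), with 15.2% of all genes past 0.05. For TRAP-1-NegB the differences were −0.05 (adjusted p = 0.97) and 0.47 (adjusted p = 0.78), with 2.48% of all genes past 0.05.

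**Figure D2:**
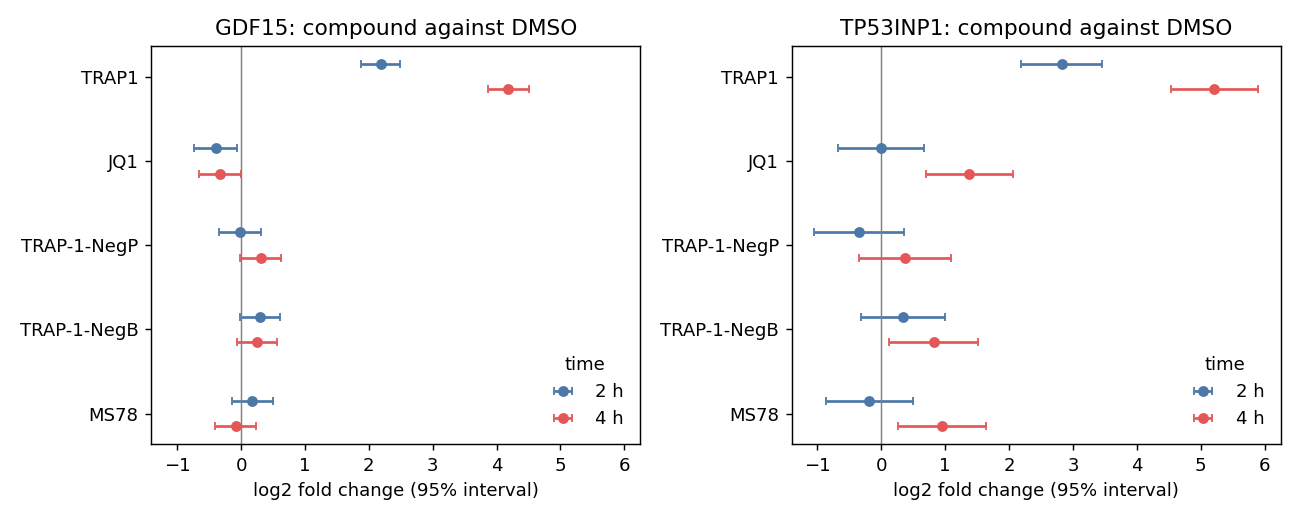
Log2 fold change of GDF15 (left) and TP53INP1 (right) for each compound against DMSO at 2 and 4 h (n = 3 libraries per group). The 95% intervals were computed from the edgeR fit of all 36 libraries. TRAP1 lies at 4.18 and 5.21 at 4 h. The intervals of TRAP1, JQ1 and TRAP-1-NegP, which chose the genes, are a description with no test. Of the compounds tested, MS78 and TRAP-1-NegB have intervals that leave out 0 for TP53INP1 at 4 h. The intervals are not adjusted for the number of genes, and the adjusted p were 0.053 and 0.39 (edgeR).

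Ordered by mean CPM, GDF15 ran from TRAP1 at 4 h (266 ± 21.9, SD, n = 3) and TRAP1 at 2 h (56.3 ± 1.16) through TRAP-1-NegP at 4 h (18.02 ± 1.92), TRAP-1-NegB at 4 h (17.3 ± 2.82), TRAP-1-NegB at 2 h (15.2 ± 1.19) and DMSO at 4 h (14.6 ± 2.05). Below these came MS78 at 2 h (13.8 ± 3.92), MS78 at 4 h (13.8 ± 3.59), DMSO at 2 h (12.4 ± 1.57), TRAP-1-NegP at 2 h (12.2 ± 1.33), JQ1 at 4 h (11.7 ± 0.847) and JQ1 at 2 h (9.37 ± 1.45). The library ranges of neighbours in this order overlapped in 8 of 11 pairs, the exceptions being the steps below each TRAP1 group and the step from JQ1 at 4 h to JQ1 at 2 h.

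The order for TP53INP1 began with TRAP1 at 4 h (55.5 ± 1.83), TRAP1 at 2 h (15.02 ± 1.46), JQ1 at 4 h (3.87 ± 2.30) and MS78 at 4 h (2.88 ± 0.729). TRAP-1-NegB at 2 h (2.70 ± 0.0911) and 4 h (2.63 ± 0.523), DMSO at 2 h (2.12 ± 0.878) and JQ1 at 2 h (2.11 ± 0.119) followed. The lowest were TRAP-1-NegP at 4 h (1.93 ± 0.403), MS78 at 2 h (1.89 ± 0.548), TRAP-1-NegP at 2 h (1.65 ± 0.285) and DMSO at 4 h (1.49 ± 0.851). The steps below each TRAP1 group were the only ones of 11 without overlap.

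Per length, in TPM, the genes differ widely in level. GDF15 stood at 20.8 ± 2.31 TPM (SD, n = 3) in DMSO at 4 h and 299 ± 20.0 in TRAP1 at 4 h, and TP53INP1 at 0.367 ± 0.207 and 10.8 ± 0.314. At 2 h the TRAP1 levels were 82.1 ± 2.26 and 3.85 ± 0.372 TPM. By TPM within a library, GDF15 ranked 4323 to 5103 of 29744 genes in DMSO at 4 h and 428 to 462 in TRAP1 at 4 h, while TP53INP1 ranked 12702 to 14228 and 5635 to 5824. So TP53INP1 had the larger fold difference from DMSO, and GDF15 the larger level. Against JQ1 at 4 h the log2 difference of TRAP1 was larger for GDF15 (4.51) than for TP53INP1 (3.84). Against MS78 at 4 h it was 4.27 for each gene. The ratio of GDF15 to TP53INP1 in TPM was 21.5 ± 2.79 in TRAP1 at 2 h and 27.8 ± 2.46 at 4 h, against 39.5 ± 22.7 and 70.5 ± 37.7 in DMSO. The DMSO ratios rest on TP53INP1 counts of 25 to 61 at 2 h and 13 to 48 at 4 h. At 2 and 4 h the ratio was 25.3 and 23.7 with JQ1, and 47.1 and 27.6 with MS78. It was 32.0 and 39.4 with TRAP-1-NegB, and 43.4 and 55.8 with TRAP-1-NegP. Ratios near those of TRAP1 were therefore not particular to it. CDKN1A, which encodes the cell cycle inhibitor p21, went from 113 TPM in DMSO at 4 h to 4266 in TRAP1.

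**Figure D3:**
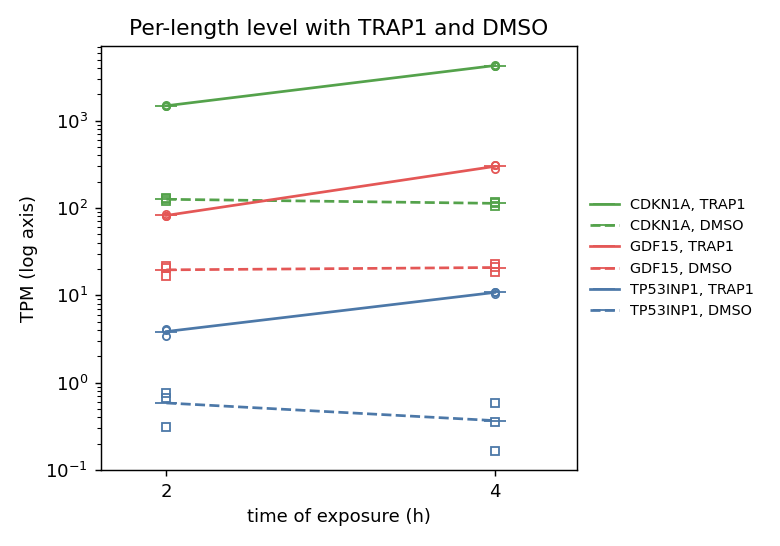
TPM of CDKN1A, GDF15 and TP53INP1 on a log axis against time of exposure in h, with TRAP1 (solid lines) and DMSO (dashed lines). Points are single libraries and lines join the means of 3 libraries. The TRAP1 means of GDF15 are 82.1 and 299 TPM and those of TP53INP1 are 3.85 and 10.8.

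At the transcript level, GDF15 has 1 transcript in the deposited table and TP53INP1 has 2, NM_033285.3 (4 exons, 5638 bases) and NM_001135733.1 (5 exons, 5631 bases). All TP53INP1 counts were assigned to NM_033285.3 in 27 of 36 libraries, all to NM_001135733.1 in 4, and were split in 5. Both assignments were seen among the TRAP1 replicates: NM_033285.3 took 100% in replicate 1, 34.8% in replicate 2 and 63.1% in replicate 3 at 4 h. With replicates of 1 group this far apart, no difference in isoform use is described, and the gene-level sum is used throughout. TP53INP1 lies inside the span of NDUFAF6 on the opposite strand, but 0 of its 5676 exon bases overlap NDUFAF6 exons. NDUFAF6, a mitochondrial complex I assembly gene, did not pass with TRAP1 (−0.03 at 2 h and −0.23 at 4 h, adjusted p = 0.93 and 0.28, edgeR). GDF15 also hosts the microRNA gene MIR3189.

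Neighbouring genes gave mixed values with TRAP1. Of all tested genes, 15.7% were higher and 14.3% lower at 2 h, and 22.2% and 24.5% at 4 h. Calls near the members are therefore not particular to them. LSM4 near GDF15, and PLEKHF2, C8orf37 and DPY19L4 near TP53INP1, passed at neither time (edgeR). Near GDF15, PGPEP1, a peptidase gene and itself a p53 target, 4781 bases away, did not pass (−0.03 at 2 h and 0.19 at 4 h, adjusted p = 0.94 and 0.38, edgeR). ISYNA1, which makes inositol phosphate, rose (0.62 and 1.02, adjusted p = 3.8e-05 and 1.4e-10), and so did JUND, an AP-1 subunit 93109 bases away (1.58 and 2.08, adjusted p = 1.7e-10 and 7.6e-14). At 4 h SSBP4 fell (−0.56, adjusted p = 0.0088) and ELL, an elongation factor gene, rose (0.41, adjusted p = 0.0088). Near TP53INP1, the cyclin gene CCNE2, 29294 bases away, rose (0.68 and 0.92, adjusted p = 1.5e-05 and 2.2e-08), and INTS8, an Integrator subunit, fell at 4 h (−0.47, adjusted p = 4.2e-05).

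The same TRAP1 comparisons were read for the p53 pathway, over 99 listed target genes other than these 2, of which 96 were tested. At 2 h, 43 were higher and 10 lower, against 15.7% and 14.3% of all tested genes, and at 4 h 64 were higher and 8 lower, against 22.2% and 24.5%. The median log2 change of the list was 0.24 at 2 h and 0.61 at 4 h, beside 0.01 and −0.02 over all tested genes. The counts of lower genes at 2 h ran from 6 to 10 as single libraries were left out, with 6 without DMSO replicate 2. Among these and the members, 98 genes, the order by log2 change at 4 h began with CDKN1A, TP53INP1, SPATA18 and GDF15, and at 2 h with TNFRSF10C, CDKN1A, TP53INP1 and GDF15. SPATA18 rests on 0 counts in DMSO and 0 to 7 in TRAP1 at 4 h, and TNFRSF10C on 0 to 2 and 20 to 25 counts at 2 h. Over all tested genes, GDF15 ranked 213 and TP53INP1 135 at 2 h, and 74 and 46 at 4 h.

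**Figure D4:**
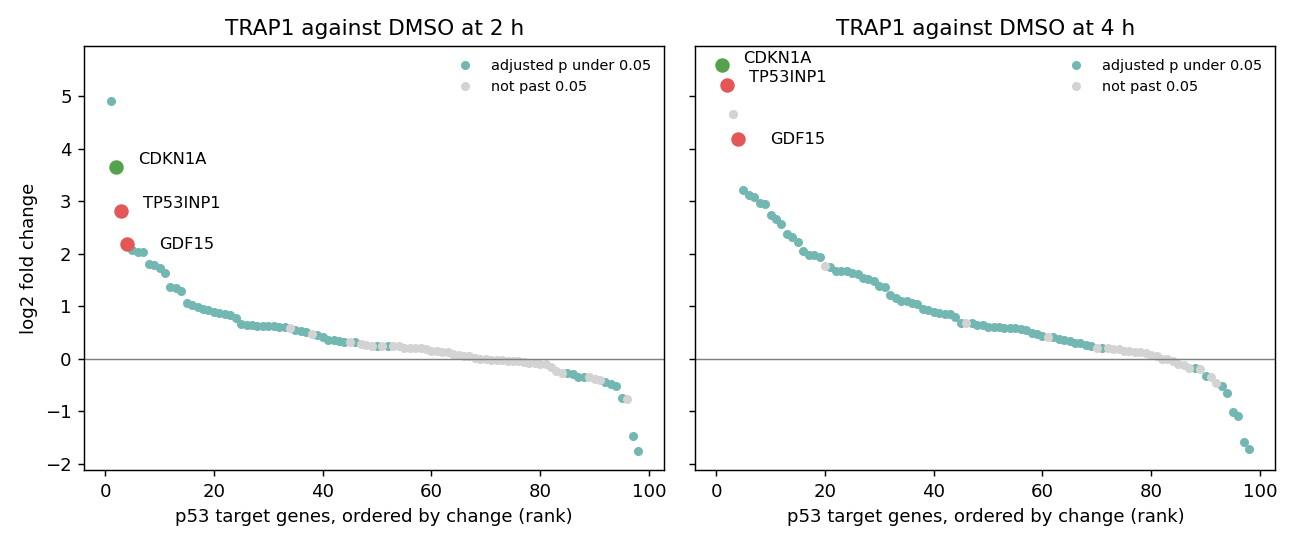
Log2 fold change with TRAP1 against DMSO at 2 h (left) and 4 h (right) for 98 p53 target genes ordered by change, with GDF15 and TP53INP1 in red and CDKN1A in green. Among the other genes, teal points passed an adjusted p of 0.05 and grey points did not (edgeR). The members are marked by colour only, with no test. At 4 h CDKN1A is at 5.59, TP53INP1 at 5.21 and GDF15 at 4.18.

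The genes named here among the p53 targets have the lowest adjusted p in each direction or belong to a panel of known stress genes, and are not the largest changes. CDKN1A was at 3.66 ± 0.0530 at 2 h and 5.59 ± 0.0579 at 4 h (adjusted p = 3.2e-49 and 7.6e-57, edgeR). PLK3, a stress kinase, was at 1.81 and 3.09, TNFRSF10D, a decoy receptor for the death ligand TRAIL, at 1.37 and 2.97, and the antiproliferative BTG2 at 2.07 and 2.57, all past the threshold. TP53I3, an oxidoreductase linked to oxidative stress, was at 0.94 and 2.23. MDM2, the p53 inhibitor, was at 0.05 at 2 h and 0.94 at 4 h (adjusted p = 9.7e-10 at 4 h). Falls were seen in TRIM32, a ubiquitin ligase (−1.76 and −1.73), AEN, an apoptotic nuclease (−1.48 and −1.09), TSKU, a secreted proteoglycan (−0.75 and −1.59) and PRKAB1, an AMPK subunit (−0.35 and −0.52). With TRAP-1-NegP and JQ1 at 4 h, TNFRSF10D stood at 2.06 and 2.72, PLK3 at 1.42 and 1.63, and BTG2 at 0.66 and 0.68.

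The p53 targets were also read with the other compounds, with the share of all tested genes in parentheses. With TRAP-1-NegP, 28 were higher and 20 lower at 2 h (16.4% and 13.9%) and 41 higher and 15 lower at 4 h (18.6% and 18.9%). With JQ1, 25 were higher and 17 lower at 2 h (14.8% and 13.9%) and 41 higher and 21 lower at 4 h (24.3% and 24.6%). With TRAP-1-NegB, 11 were higher and 5 lower at 2 h (5.08% and 5.87%) and 6 higher and 1 lower at 4 h (0.827% and 0.2%). With MS78, 14 were higher and 10 lower at 2 h (8.3% and 7.65%) and 10 higher and 13 lower at 4 h (6.23% and 9.05%). The lower counts at 4 h were 15.6% of the list with TRAP-1-NegP and 21.9% with JQ1, below the share of all genes. The MS78 count of higher genes at 2 h was 8 without the libraries that stood apart, and the MS78 counts at 2 h were 3 and 0 when only the groups compared were fitted. These comparisons share the DMSO libraries of their time, so their counts are not independent of each other. CDKN1A was at 2.08 with TRAP-1-NegP and 2.13 with JQ1 at 4 h, where GDF15 stood at 0.31 and −0.32. MDM2 fell with both, by 0.77 with TRAP-1-NegP and 0.69 with JQ1 on the log2 scale.

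Of the 1667 genes that rose with TRAP1 at both times, 30 were called higher in no JQ1 or TRAP-1-NegP comparison. GDF15 is among the 30, and TP53INP1 is not, because its JQ1 value at 4 h (1.38) was called higher. These calls use an adjusted p under 0.05 in the comparisons that chose the members. For the members they therefore repeat the choice and lend it no support. Among the 96 tested p53 targets, 40 rose at both times, and 2 of these, TP53I3 and BLOC1S2, a gene of lysosome positioning, were higher in neither control compound. TP53I3 stood at 0.08 with TRAP-1-NegP and 0.07 with JQ1 at 4 h (adjusted p = 0.66 and 0.71, edgeR).

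The integrated stress response, through which ATF4 and CHOP raise GDF15 in other settings, was read over 39 listed genes, of which 36 were tested. With TRAP1, 18 were higher and 6 lower at 2 h, and 19 higher and 7 lower at 4 h, with list medians of 0.22 and 0.30. As shares of the list, the higher calls were 50% and 52.8% (15.7% and 22.2% of all genes), and the lower calls 16.7% and 19.4% (14.3% and 24.5%), near or below the share of all genes. TRAP-1-NegP gave 16 higher and 5 lower at 2 h and 16 higher and 6 lower at 4 h. Of all genes, 16.4% and 18.6% were higher at these times. The lower calls were 13.9% and 16.7% of the list where 13.9% and 18.9% of all genes were lower. JQ1 gave 16 and 5, then 17 and 11 (14.8% and 13.9% of all genes, then 24.3% and 24.6%). TRAP-1-NegB gave 4 and 3, then 4 and 0 (5.08% and 5.87% of all genes, then 0.827% and 0.2%), and MS78 10 and 5, then 7 and 1 (8.3% and 7.65%, then 6.23% and 9.05%). The stress sensor SESN2 rose by 1.63 and 2.32, the eIF2 phosphatase subunit PPP1R15A by 0.88 and 1.44, ATF4 itself by 0.38 and 0.94 and HERPUD1, an endoplasmic reticulum protein, by 0.67 and 1.36 with TRAP1 at 2 and 4 h. The genes named among those that fell were the amino acid transporters SLC7A11 (−0.52 and −0.82) and SLC7A1 (−0.67 and −1.05), the tRNA exporter XPOT (−0.26 and −0.78) and the pseudokinase TRIB3 (−1.43 and −1.87). Other amino acid genes of the list rose, such as ASNS, asparagine synthetase (0.61 and 1.15), and CTH, an enzyme of cysteine synthesis (1.19 and 2.08), which were named after their values were seen.

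ATF3, DDIT3, EGR1 and SESN2 rose with TRAP1, TRAP-1-NegP and JQ1, beside GDF15 values at 4 h of 4.18, 0.31 and −0.32. At 4 h ATF3 was at 3.21 with TRAP1, 1.77 with TRAP-1-NegP and 2.11 with JQ1, and DDIT3, which encodes CHOP, at 0.87, 0.86 and 0.43. EGR1, an early growth response factor, was at 2.21, 1.66 and 2.49, and SESN2 at 2.32, 1.58 and 1.79. All of these passed 0.05 against the shared DMSO libraries with edgeR. Of the 17 list genes that rose with TRAP1 at both times, 0 were higher in neither JQ1 nor TRAP-1-NegP. Among all tested genes it was 30 of 1667, a share so small that 0 of 17 does not set the list apart. TRIB3, of the same panel, fell at 4 h with TRAP1 (−1.87), TRAP-1-NegP (−1.28) and JQ1 (−2.27). With MS78 at 2 h, ATF3 was at 1.36 and DDIT3 at 0.64 (adjusted p = 2.4e-06 and 0.0016, edgeR). EGR1 and SESN2 did not pass there, and none of these genes passed with MS78 at 4 h. A link of this response to GDF15 was not tested.

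A list on GDF15 signalling and the partners of TP53INP1 held 32 genes, 29 of them tested. It takes in general TGF-beta family genes, such as TGFB1, TGFBR1 and TGFBR2, which are not the GDF15 receptor. The GDF15 receptor gene GFRAL had 0 counts in all libraries and its co-receptor RET at most 11, and neither was tested. SMAD4, also with 0 counts, was not tested either. With TRAP1, 10 of the 29 were higher and 5 lower at 2 h, and 15 higher and 7 lower at 4 h, with medians of 0.15 and 0.29. The higher calls were 34.5% and 51.7% of the list (15.7% and 22.2% of all genes), and the lower calls 17.2% and 24.1% (14.3% and 24.5%), so falls were about as frequent as among all genes. At 4 h TRAP-1-NegP gave 13 and 7 (18.6% and 18.9% of all genes), JQ1 14 and 7 (24.3% and 24.6%), TRAP-1-NegB 3 and 0 (0.827% and 0.2%), and MS78 5 and 4 (6.23% and 9.05%). With TRAP1 at 2 and 4 h, MAP1LC3B, a gene for LC3, which TP53INP1 binds in autophagy, rose by 0.64 and 1.38. The autophagy receptor SQSTM1 rose by 0.34 and 0.84, the TGF-beta ligand TGFB1 by 0.62 and 0.93, and the TGF-beta receptor TGFBR1 by 0.39 and 0.94. With TRAP-1-NegP and JQ1 at 4 h, MAP1LC3B stood at 1.12 and 1.42 and SQSTM1 at 0.80 and 0.70. TGFB1 stood there at 0.76 and 0.78, and TGFBR1 at 0.56 and 1.17. These rises are therefore not particular to TRAP1. HIPK2, the kinase partner of TP53INP1, fell with TRAP1 (−0.37 and −0.98), as did the TGF-beta receptor TGFBR2 (−0.36 and −1.11). The TGF-beta ligand TGFB2 and the p53 relative TP73 fell with TRAP1 at 4 h (−1.59 and −1.84, adjusted p = 3.4e-07 and 1.6e-05, edgeR). TP53INP2, the close relative of TP53INP1, was named after its values were seen. It rose at 4 h with TRAP1 (1.63), JQ1 (1.61), TRAP-1-NegP (1.55) and MS78 (0.59, adjusted p = 0.026, edgeR), and stood at 0.28 with TRAP-1-NegB (adjusted p = 0.68).

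The genes whose pattern was most like the members were found by Pearson correlation of log2 CPM over the 12 group means, among 4881 genes with at least 1 CPM in a group and a range of at least 1 on the log2 scale. For GDF15 the 8 closest were NEURL2 (r = 0.974), ZNF488 (0.970), TP53I3 (0.965), LOC100505920 (0.964), ZBTB5 (0.963), NUAK2 (0.958), TP53INP1 (0.956) and POLR1E (0.954). For TP53INP1 they included ZBTB5 (0.982), SESN1 (0.979), LOC100505920 (0.974), GDF15 (0.956), NUAK2 (0.946), NEURL2 (0.943) and TP53I3 (0.940). SESN1 is a sestrin and a known p53 target, NUAK2 is a kinase related to AMPK, POLR1E is an RNA polymerase I subunit, and ZBTB5 and ZNF488 encode zinc finger proteins. The members correlated at r = 0.956 over 12 groups and 0.920 over 36 libraries, points that share depth within a library. Both were chosen for high levels with TRAP1, which fixes much of this likeness. Ranked by Spearman correlation instead, 1 and 2 of these 8 genes stayed among the 8 closest. LOC100505920, a long noncoding RNA, had 21, 32 and 24 counts in TRAP1 at 2 h, and 13, 77 and 72 at 4 h, with 0 to 5 in every other library. The low 13 came from the TRAP1 library that stood apart. It passed the filters through the TRAP1 groups, so its likeness to the members follows in part from that choice.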

How the data were processed

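Per the submitters' processing notes, the authors quantified polyA-selected, paired-end reads of 150 bases against hg38 with Salmon 1.10.3 in nf-core/rnaseq 3.18.0. Annotation release and strandedness: not given in the sources used here. Estimated counts, not normalized for depth, fill one deposited table, and a deposited TPM table holds levels scaled for length and depth. All 36 columns were matched to samples by name.

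Estimated counts were rounded. Genes were kept with filterByExpr (minimum count 10) in edgeR 4.0.16 (R 4.3.3), scaled by TMM and fitted over all 36 libraries with 12 group means (glmQLFit, glmQLFTest, two-sided), with Benjamini-Hochberg adjustment over 14988 genes per comparison and calls under 0.05. The common biological coefficient of variation was 0.135. Each SE is the absolute log2 change divided by the square root of the test's F, and the 95% intervals use it with a t quantile. These errors rest on a variance pooled over all 36 libraries and moderated across genes, not on the 3 libraries of a group alone. The members, gene lists and comparisons were chosen with earlier results of these data known. List genes named were up to 4 per direction by adjusted p at 4 h, with a panel of known stress genes. Genes alike were the 8 with the highest correlation over group means (log2 CPM with a pseudocount of 0.5). One of them is not reported here. Genes and transcripts were placed with GENCODE v29.

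Tested on simulated data of MS78 against DMSO at 4 h (13332 genes), the fit called 79% of the genes given a 1.5-fold change, 93% of those given a 2-fold change and 14 unchanged genes. Only the libraries of these groups were simulated and fitted, not all 36. The changed genes all had higher DMSO levels than TP53INP1 (1.49 CPM). The shares therefore do not describe TP53INP1 or the fit of all libraries. The alternatives tried were DESeq2 1.42.0 (size factors and Wald test), no or stricter count filters, length-scaled counts, only the groups compared, a replicate block and each library left out. Leaving out both libraries that stood apart was chosen after the data were seen. Figures were drawn with matplotlib 3.10.9.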

Additional observations from a re-analysis of the deposited data

How the results depend on the processing

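The TRAP1 differences of both genes kept their direction under every alternative run. For TP53INP1 against DMSO at 4 h they ran from 4.84 to 5.71 as libraries were left out, against TRAP-1-NegB from 4.30 to 4.57, against TRAP-1-NegP from 4.70 to 5.02, and the TRAP1 change from 2 to 4 h from 2.00 to 2.88. TRAP1 against MS78 at 2 h was 2.73 without both libraries that stood apart. The TP53INP1 value with TRAP-1-NegP at 4 h ran from 0.0066 to 0.88.

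TP53INP1 with MS78 at 4 h passed 0.05 with DESeq2 (0.97, adjusted p = 0.023), with no count filter (0.97, 0.0085), a stricter filter (0.95, 0.048) and without both libraries (0.97, 0.029), and ran from 0.62 to 1.49 as libraries were left out. It did not pass with DESeq2 size factors (0.96, 0.051), length-scaled counts (0.95, 0.056), a replicate block (0.96, 0.061) or only the groups compared (0.96, 0.12), and the adjusted p reached 0.24 as libraries were left out. The block changed no call of the members. Replicate numbers did not pair libraries: over 198 same-number pairs of libraries the mean correlation of deviations was 0.00128, and 15 of 36 libraries correlated best with their own number.

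Signs turned without both libraries for MS78 at 2 h, to −0.052 for GDF15 and 0.078 for TP53INP1. As libraries were left out, GDF15 with MS78 ran from −0.073 to 0.35 at 2 h and −0.29 to 0.086 at 4 h, TP53INP1 with MS78 at 2 h from −0.47 to 0.056, and the GDF15 difference of MS78 from TRAP-1-NegB from −0.37 to 0.055 at 2 h and −0.54 to −0.16 at 4 h. For TP53INP1 that difference at 4 h ran from −0.039 to 0.32. The cause was not tested. DESeq2 gave no adjusted p for TP53INP1 between MS78 and TRAP-1-NegB.

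The p53 targets lower with TRAP1 at 2 h numbered 6 to 10 as libraries were left out. Of p53 targets with MS78 at 2 h, fitting only the groups compared left 3 higher and 0 lower, and with TRAP-1-NegB at 2 h 8 lower. Leaving out single libraries gave 7 to 15 higher and 4 to 15 lower with MS78 at 2 h, 6 to 9 and 4 to 12 at 4 h, and 1 to 3 lower with TRAP-1-NegB at 2 h. Of stress response genes with MS78, only the groups compared gave 5 higher and 1 lower at 2 h, and leaving out libraries 4 to 9 higher at 4 h and 2 to 7 lower at 2 h. TRAP-1-NegB counts of p53 targets were 17 higher at 2 h without both libraries and 2 lower at 4 h with DESeq2. TP53INP1 at 13 to 48 counts in DMSO at 4 h limits its fold changes, and replicate error there is wide.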
